A study of Canis lupus familiaris with 4 samples.

Results

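The genes described here are 10 oxygen-dependent demethylases and relatives of the JmjC family, KDM3A, KDM4A, KDM4B, KDM4C, KDM5B, KDM6B, KDM7A, KDM2A, KDM2B and JMJD6. They were taken as every probe set whose symbol in the platform annotation is 1 of these 10, which gave 18 of the 42924 probe sets on the array for 10 of its 15115 named genes. A probe set is a group of short array probes that read 1 transcript or a few related ones. Of these 10 genes, 4 had 1 probe set, 4 had 2 and 2 had 3. The name of 11 of the 18 probe sets ends in s_at, the maker's mark for probes that several transcripts can share, and the name of the other 7 ends in at alone.

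The samples were MDCKII cells, an established epithelial line from dog kidney, and each of 4 groups had 1 Affymetrix array. The groups were labelled HIF1A KD hypoxia, HIF1A WT hypoxia, HIF1A KD normoxia and HIF1A WT normoxia, where KD stands for a knockdown of HIF1A and WT for cells without it. All cells spent 24 h in normoxia and then another 24 h in the condition of their label. The design crosses oxygen with the knockdown of HIF1A, the oxygen-regulated subunit of the hypoxia-inducible factor. How the knockdown was made, whether the cells came from 1 clone, and the oxygen level are not stated in the sources used here.

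Most of these JmjC enzymes remove methyl groups from lysines of histone tails. Each reaction uses molecular oxygen and 2-oxoglutarate and needs iron, so the activity of these enzymes can fall when oxygen is short. Several of their genes, with KDM3A and KDM4B the best known, are direct targets of the hypoxia-inducible factor in human cells, where their transcripts rise as oxygen falls. Methyl marks on H3K9 and H3K27 go with silent chromatin, those on H3K4 with active promoters and those on H3K36 with gene bodies.

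The arrays were alike in scale, with median intensities from 45.6 to 47.1 and correlations between arrays (Pearson, log2 values) from 0.982 to 0.987. HIF1A did not follow the knockdown label. Its brightest probe set read 625 in the array labelled KD hypoxia, 675 in that labelled WT hypoxia, 3435 in that labelled KD normoxia and 3651 in that labelled WT normoxia. It was thus low in both arrays labelled hypoxia and differed little by the knockdown label, so directions are given by the labels alone. Of 8 kidney epithelium markers 7 were at or above the floor described below on all arrays, among them EPCAM, KRT8, KRT18 and the kidney cadherin CDH16, while CDH1 was below it on all 4. Of 3 leukocyte markers 0 reached the floor on all arrays, nor did PECAM1, VWF, COL1A1 and COL3A1 on any, and CDH5 and PDGFRA did on all 4. Since a group is 1 array, no difference can be set against a spread of replicates, and precision is limited by the small number of arrays. In bulk RNA, a lower level in every cell and a lower share of cells that carry the transcript cannot be told apart.

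Values are the deposited linear intensities, and differences are taken on the scale log2(intensity + 16), which understates the change of dim probe sets. A probe set was tested if at least 1 array reached the median over the whole table, an intensity of 46.3, called the floor. Below it a value is treated as having no measured level. Among the 18 probe sets, 11 of 7 genes passed, 10 of them above the floor on all 4 arrays. The other 7 lay below the floor on every array, and they hold all probe sets of KDM2A, KDM2B and KDM4C.

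In these data KDM3A and KDM5B carried the largest measured differences of the family, and both differed by the knockdown label. KDM3A was higher in the arrays labelled KD than in those labelled WT in both of its probe sets, and KDM5B in 1 of 2. By the oxygen label, 1 KDM3A probe set was lower in the arrays labelled hypoxia. KDM7A stood out for a low reading in the array labelled WT hypoxia. The probe sets of KDM4A, KDM4B, KDM6B and JMJD6 did not pass the test in either direction. In 8 of the 11 tested probe sets the highest array was less than 1.5-fold above the lowest on this scale. The share over all tested probe sets was not counted, so this is not read as a trait of the family.

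**Figure D1:**
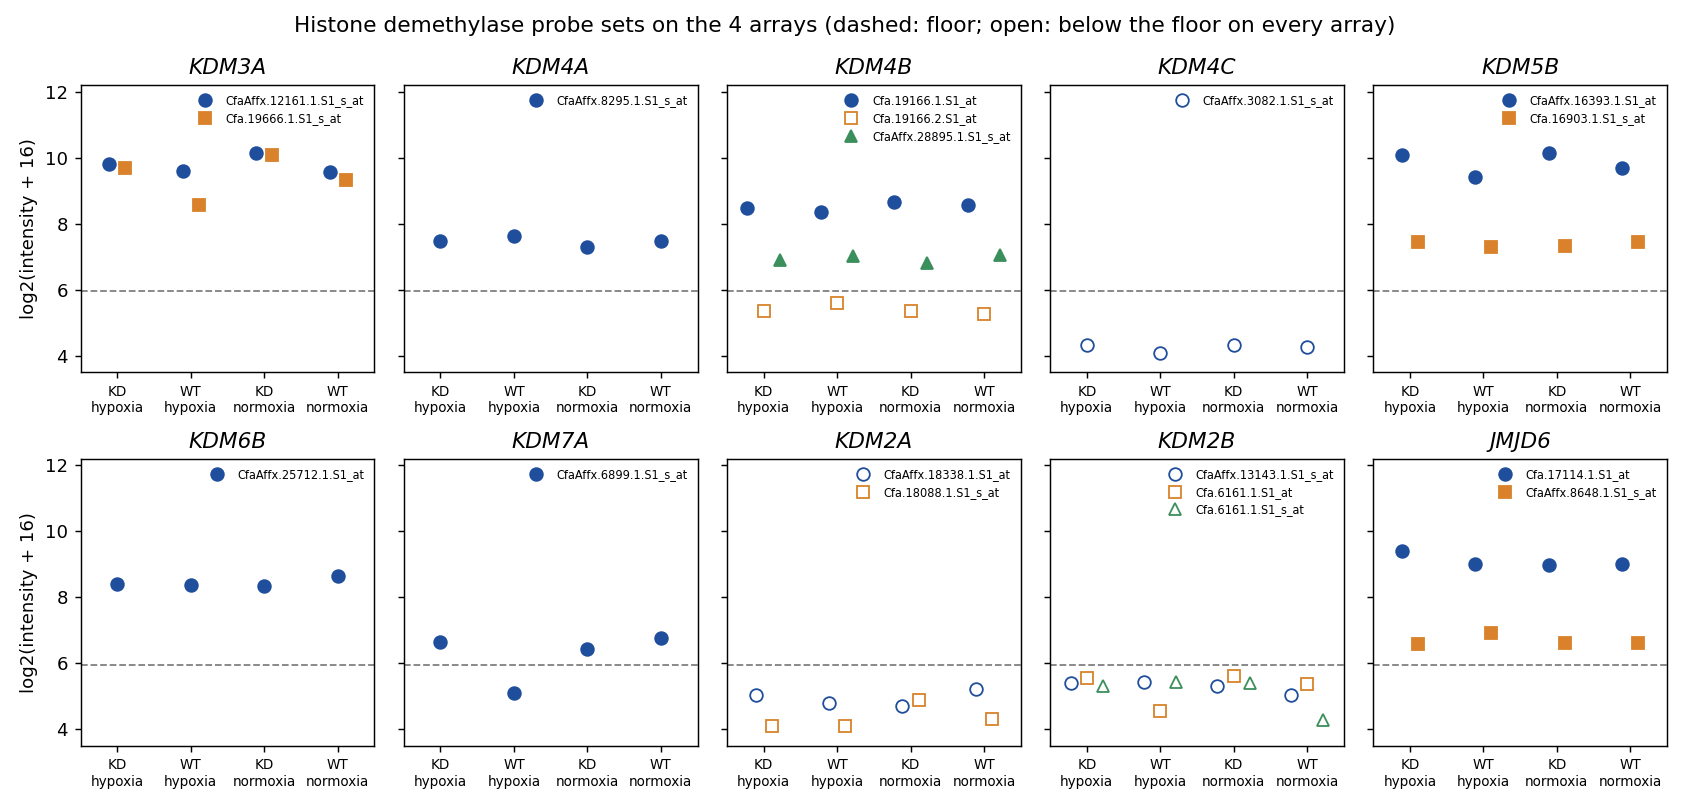
Values of all 18 probe sets on the 4 arrays, as log2(intensity + 16), with 1 panel per gene and 1 marker per probe set; the dashed line is the floor, and open markers are probe sets below it on every array. KDM3A and the brighter KDM5B probe set are highest in the array labelled KD normoxia, and KDM7A is below the floor in the array labelled WT hypoxia alone; levels of different probe sets are not comparable.

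KDM3A, also known as JMJD1A, removes methyl groups from H3K9. Its brighter probe set read 877 in the array labelled KD hypoxia, 760 in WT hypoxia, 1104 in KD normoxia and 734 in WT normoxia. Its other probe set read 810 in KD hypoxia, 358 in WT hypoxia, 1074 in KD normoxia and 616 in WT normoxia. In both, the arrays labelled KD lay above those labelled WT and the array labelled KD normoxia was the highest. The probe sets parted on which array was lowest. In the brighter it was WT normoxia, with WT hypoxia close by, and in the other it was WT hypoxia.

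For labelled KD minus WT, KDM3A differed by 0.58 and 0.79 (log2, brighter probe set first) in the normoxia arrays and by 0.20 and 1.14 in the hypoxia arrays. For labelled hypoxia minus normoxia it differed by -0.33 and -0.40 in KD cells, and by 0.05 and -0.76 in WT cells. The sign in KD cells was the same in both probe sets, while in WT cells the brighter showed almost no difference and the other read 0.58 of its normoxia intensity. An increase of KDM3A with labelled hypoxia, the direction known for it in human cells, was thus not seen beyond 0.05 in either probe set or genotype as labelled. This rests on labels that HIF1A puts in doubt. If the arrays labelled KD normoxia and WT hypoxia had changed places, the labelled KD minus WT values would become oxygen differences. For KDM3A these would be 0.58 and 0.79 in WT cells and 0.20 and 1.14 in KD cells. For the tested KDM4B probe sets, brighter first, they would be 0.10 and -0.24 in WT cells and 0.14 and -0.12 in KD cells. For KDM6B they would be -0.32 in WT and 0.03 in KD cells, so the members would differ in sign. Whether the arrays had changed places was not tested.

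KDM4A, KDM4B and KDM4C remove methyl groups from H3K9 and H3K36. KDM4A read 161 in KD hypoxia, 179 in WT hypoxia, 141 in KD normoxia and 161 in WT normoxia. Its 4 differences lay between -0.18 and 0.18, positive for labelled hypoxia in both genotypes and negative for labelled KD in both oxygen conditions. The brightest KDM4B probe set read 341 in KD hypoxia, 309 in WT hypoxia, 389 in KD normoxia and 361 in WT normoxia. It was lower with labelled hypoxia by 0.22 in WT and by 0.18 in KD cells, opposite in sign to KDM4A. The other tested KDM4B probe set read 103 in KD hypoxia, 113 in WT hypoxia, 95.4 in KD normoxia and 115 in WT normoxia. For labelled hypoxia it differed by only -0.03 in WT and by 0.09 in KD cells. The 2 tested KDM4B probe sets thus did not share a sign for labelled hypoxia in KD cells, nor for labelled KD minus WT. The third KDM4B probe set and the KDM4C probe set were below the floor on all arrays, with highest readings of 32.4 and 3.85.

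KDM5B removes methyl groups from H3K4. Its brighter probe set read 1071 in KD hypoxia, 666 in WT hypoxia, 1121 in KD normoxia and 812 in WT normoxia. Both arrays labelled KD lay above both labelled WT, with the 4 arrays in the same order as in the dimmer KDM3A probe set. The differences for labelled KD minus WT were 0.46 in normoxia and 0.67 in hypoxia, and for labelled hypoxia minus normoxia -0.28 in WT and -0.07 in KD cells. The other KDM5B probe set read 156 in KD hypoxia, 141 in WT hypoxia, 145 in KD normoxia and 156 in WT normoxia. That one held a range of only 0.13 over the 4 arrays and did not share the pattern.

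KDM6B, also called JMJD3, removes methyl groups from H3K27, and KDM7A acts on H3K9 and H3K27. KDM6B read 321 in KD hypoxia, 315 in WT hypoxia, 307 in KD normoxia and 386 in WT normoxia. The array labelled WT normoxia was the highest, by 0.28 over WT hypoxia and by 0.32 over KD normoxia, while the other 3 lay within 0.06 of each other. KDM7A read 83.7 in KD hypoxia, 18.4 in WT hypoxia, 69.8 in KD normoxia and 92.6 in WT normoxia. Its reading in the array labelled WT hypoxia was below the floor, so the sizes of -1.66 for labelled hypoxia in WT cells and 1.54 for labelled KD in hypoxia are not measured. Above the floor, its other differences were 0.22 for labelled hypoxia in KD cells and -0.34 for labelled KD in normoxia. KDM7A has no other probe set on the array with which this reading could be compared.

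KDM2A and KDM2B act on H3K36 and bind CpG islands, and KDM2B brings a Polycomb complex there. The 2 KDM2A probe sets read at most 21.2 and 13.3, and the 3 KDM2B probe sets at most 33.5, 27.2 and 26.9. Differences of these genes are therefore not reported, although the readings of the dimmest KDM2B probe set were 23.3, 27.2 and 26.2 in KD hypoxia, WT hypoxia and KD normoxia against 3.46 in WT normoxia. The other 2 KDM2B probe sets read 25.4 and 16.8 in WT normoxia. The first of them was lowest in WT hypoxia, at 7.45, and the second in WT normoxia. All these readings lie below the floor.

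JMJD6 is a lysyl hydroxylase of splicing factors. Its brighter probe set read 658 in KD hypoxia, 496 in WT hypoxia, 489 in KD normoxia and 495 in WT normoxia. The array labelled KD hypoxia stood 0.40 above WT hypoxia and 0.42 above KD normoxia, and the other 3 differed by at most 0.02. The other JMJD6 probe set read 80.9 in KD hypoxia, 104 in WT hypoxia, 83.0 in KD normoxia and 81.8 in WT normoxia. There the array labelled KD hypoxia was the lowest, so the 2 probe sets did not show the same array as high.

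**Figure D2:**
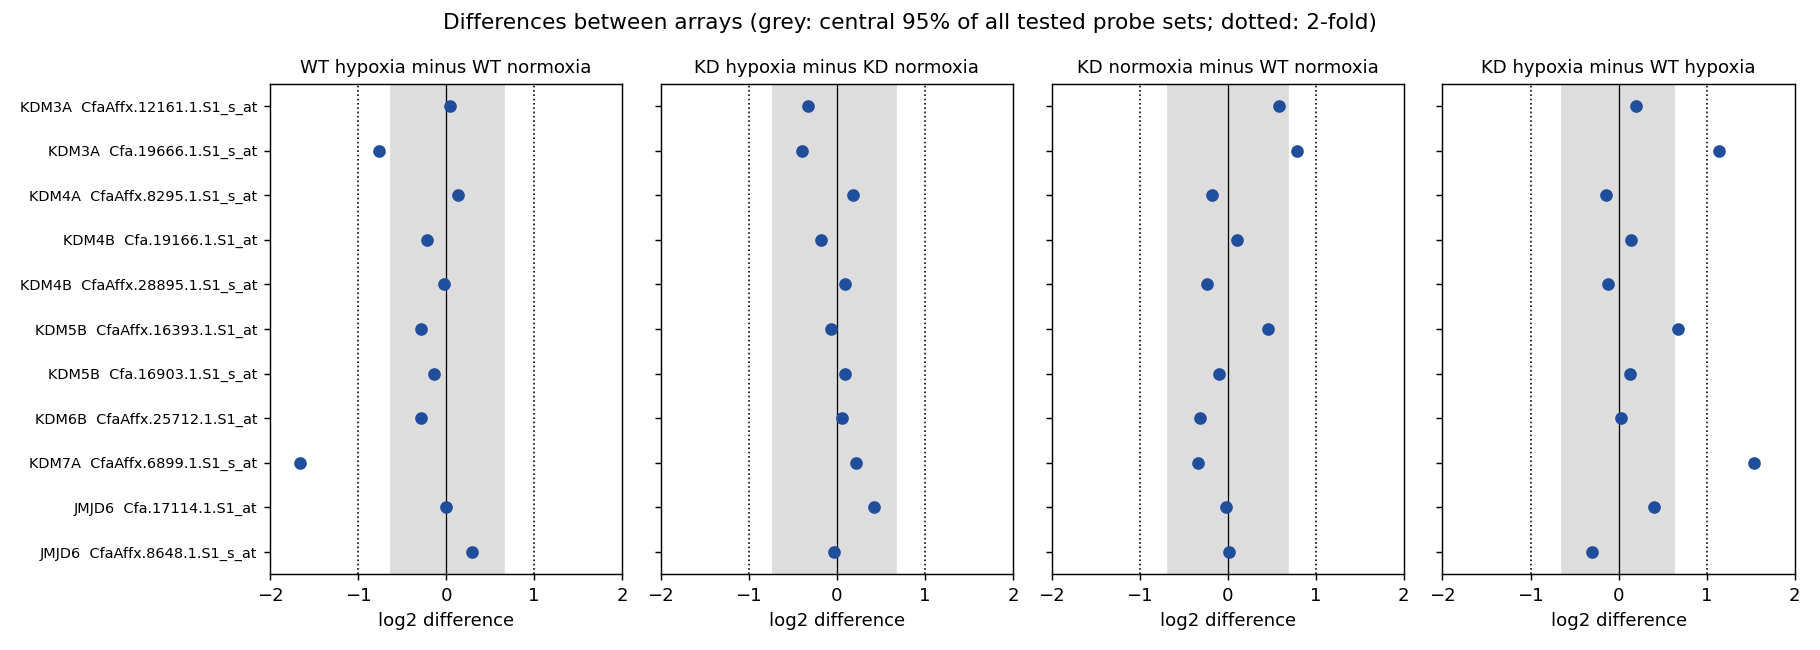
Differences of log2(intensity + 16) between 2 arrays for the 11 tested probe sets, 1 panel per pair; the grey band holds the central 95% of all 23652 tested probe sets and dotted lines mark 2-fold. Outside the band are the dimmer KDM3A probe set in 3 panels, the brighter KDM5B probe set at 0.67 in the KD minus WT hypoxia pair, and KDM7A in the 2 pairs that use the array labelled WT hypoxia.

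Counts at 2-fold are given beside the share over all tested probe sets. In the array labelled WT hypoxia against that labelled WT normoxia, 1 of 11 tested probe sets was at least 2-fold lower (KDM7A), against 0.592% of all 23652 tested probe sets, and 0 were at least 2-fold higher, against 0.757%. Between KD hypoxia and KD normoxia 0 of 11 reached 2-fold, against 1.72% in either direction, and between KD normoxia and WT normoxia 0 of 11, against 1.44%. Between KD hypoxia and WT hypoxia 2 of 11 were at least 2-fold higher (KDM7A and the dimmer KDM3A probe set), against 0.579%, and 0 lower, against 0.406%. With 11 probe sets of 7 genes, no difference of the family from other genes is read from these counts. For KDM7A the count rests on the array in which it was below the floor.

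The median difference of the 11 probe sets was -0.13 for labelled hypoxia in WT cells, against 0.02 over all tested probe sets, and 0.06 in KD cells, against 0.01. For labelled KD minus WT it was -0.02 in normoxia, against -0.02, and 0.14 in hypoxia, against -0.02. In the WT pair 4 of the 11 were higher with labelled hypoxia and 7 lower, where 52.9% of all tested probe sets were higher. In the KD pair 6 were higher and 5 lower, where 51.9% of all were higher. The response to labelled hypoxia in WT minus that in KD cells reached 2-fold in 1 of 11, lower in WT (KDM7A, -1.88), against 0.740% of all, and it has no test because it uses the last degree of freedom.

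An additive model of the oxygen and knockdown labels is the only test that 4 arrays leave room for, and it was fitted with limma over all 23652 tested probe sets. It has 1 residual degree of freedom, and its p-values rest on a variance borrowed largely from other probe sets, which does not measure the spread between cultures. In the knockdown term 3 of 11 tested probe sets rose, against 4.38% of all, and 0 fell, against 4.72% (0 of 11 at an unadjusted p under 0.05 as well). KDM3A rose by 0.39 (SE 0.11, limma adjusted p = 0.035) in its brighter and by 0.96 (SE 0.11, adjusted p = 0.00011) in its other probe set. KDM5B rose by 0.57 (SE 0.10, limma adjusted p = 0.0026) in its brighter probe set and was at 0.02 (SE 0.13, adjusted p = 0.96) in the other. The 3 calls thus stand for 2 genes.

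In the oxygen term 1 of 11 fell, against 4.92% of all, and 0 rose, against 5.34% (0 of 11 at an unadjusted p under 0.05). The dimmer KDM3A probe set fell by 0.58 (SE 0.11, limma adjusted p = 0.0032), and the brighter was at -0.14 (SE 0.11, adjusted p = 0.49). KDM7A was at -0.72 in the oxygen term (SE 0.31, limma adjusted p = 0.18) and at 0.60 in the knockdown term (SE 0.31, adjusted p = 0.27). Both values include the array labelled WT hypoxia, in which KDM7A was below the floor, so their sizes are not measured. All 4 calls were lost when the variance was borrowed without its dependence on intensity (limma adjusted p from 0.17 to 0.25) or when no floor was set (0.15 to 0.30). With 1 probe set per gene, KDM3A was no longer called in the knockdown term (limma adjusted p = 0.069).

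**Figure D3:**
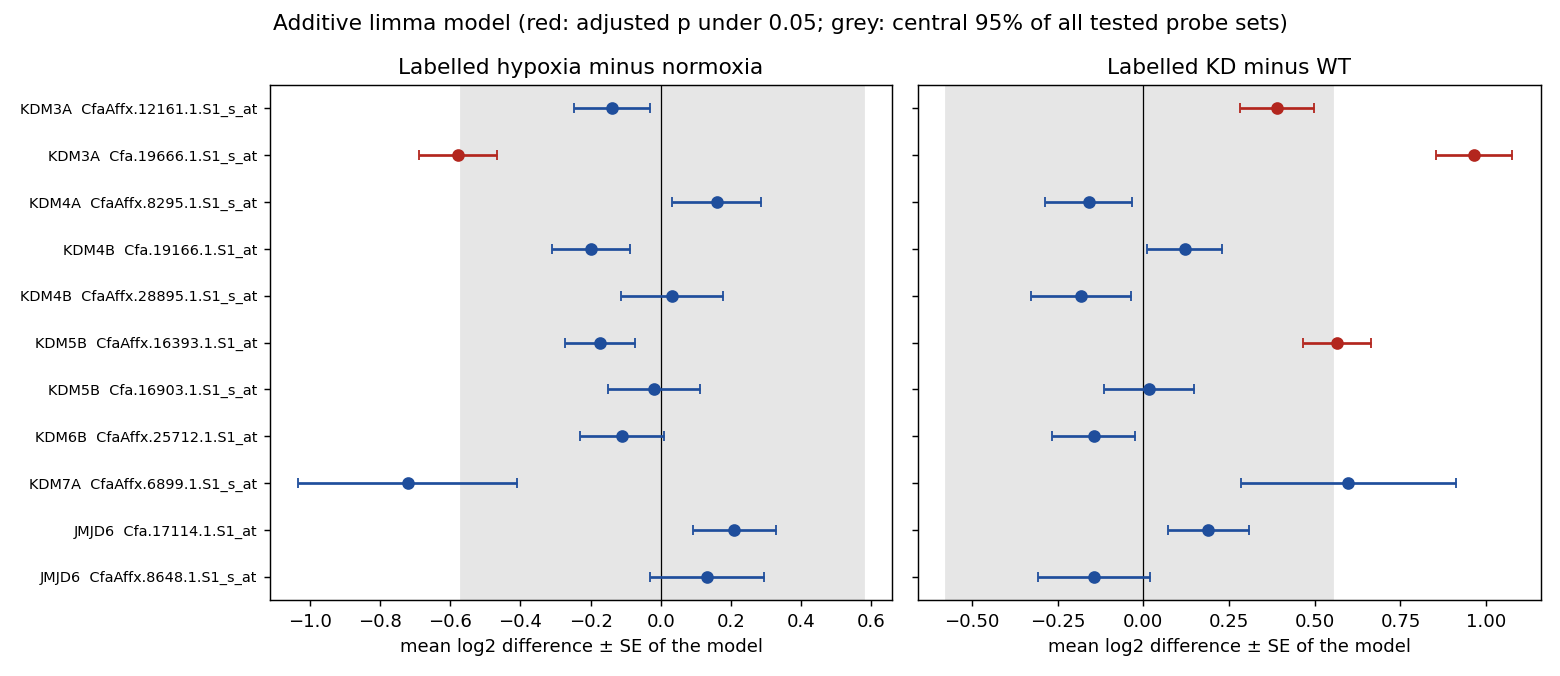
Mean log2 differences of the 11 tested probe sets in the additive limma model, with the model's SE, for labelled hypoxia minus normoxia (left) and labelled KD minus WT (right); red marks an adjusted p under 0.05 and the grey band the central 95% of all tested probe sets. Red points are both KDM3A probe sets and the brighter KDM5B probe set on the right, and the dimmer KDM3A probe set on the left.

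Related lists cover other JmjC genes, amine oxidase demethylases, TET dioxygenases, methyltransferases of H3 lysines and Polycomb genes. Of 22 other JmjC genes 16 had probe sets under their symbols, and 22 of their 35 probe sets, of 12 genes, were tested. In the oxygen term 1 of these 22 rose, against 5.34% of all tested probe sets, namely JARID2, a Polycomb cofactor without demethylase activity, by 0.53 (SE 0.13, limma adjusted p = 0.015), and 0 fell, also at an unadjusted p under 0.05. JARID2 read 185 in KD hypoxia, 181 in WT hypoxia, 125 in KD normoxia and 118 in WT normoxia, so both arrays labelled hypoxia lay above both labelled normoxia. A second tested JARID2 probe set was at 0.18 (adjusted p = 0.60). In the knockdown term 1 of the 22 fell, against 4.72% of all, a JMJD1C probe set at -0.49 (limma adjusted p = 0.043), while the brightest JMJD1C probe set was at 0.16 (adjusted p = 0.41), and 0 rose (2 at an unadjusted p under 0.05).

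KDM5A and KDM6A, which have been described as direct oxygen sensors in mammalian cells, were measured above the floor. The brightest KDM6A probe set, for an H3K27 demethylase related to KDM6B, read 408 in KD hypoxia, 373 in WT hypoxia, 394 in KD normoxia and 434 in WT normoxia. That of KDM5A, an H3K4 demethylase related to KDM5B, read 677 in KD hypoxia, 711 in WT hypoxia, 763 in KD normoxia and 758 in WT normoxia. Neither passed the test in the oxygen term (limma adjusted p = 0.74 and 0.49) or in the knockdown term (0.99 and 0.90). Further tested KDM5A probe sets were at 0.25 and -0.33 in the knockdown term, so they opposed each other, and they were not called. KDM3B, a close relative of KDM3A, was at -0.25 in the knockdown term (limma adjusted p = 0.22), where KDM3A was positive.

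Of the amine oxidase demethylases KDM1A and KDM1B, which use oxygen through a flavin in place of iron, 0 of 3 tested probe sets passed in either term (1 at an unadjusted p under 0.05). KDM1A was at 0.19 in the knockdown term (limma adjusted p = 0.12). Of the TET dioxygenases, which oxidise methylated cytosine in DNA, 0 of 4 passed in either term (2 at an unadjusted p under 0.05, both in the knockdown term). The methyltransferases that set the H3 lysine marks had 37 tested probe sets of 16 genes. In the oxygen term 3 of 37 rose, against 5.34% of all, and 0 fell, against 4.92% (2 lower at an unadjusted p under 0.05), and in the knockdown term 0 passed (6 lower and 0 higher at an unadjusted p under 0.05). The 3 were EZH2, the H3K27 methyltransferase of Polycomb, at 0.34 (SE 0.09, limma adjusted p = 0.021), 1 of 4 NSD3 probe sets at 0.62 (adjusted p = 0.021) and 1 of 2 NSD1 probe sets at 0.45 (adjusted p = 0.035). The brightest NSD3 and NSD1 probe sets, for H3K36 methyltransferases, were at 0.14 and -0.12.

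EZH2 read 1347 in KD hypoxia, 1495 in WT hypoxia, 1050 in KD normoxia and 1183 in WT normoxia, with both arrays labelled hypoxia above both labelled normoxia. Among 8 tested probe sets of 7 Polycomb genes, 0 passed in the oxygen term (1 at an unadjusted p under 0.05), and in the knockdown term 1 of 8 rose, against 4.38% of all, and 1 fell, against 4.72%. RYBP rose by 0.33 (limma adjusted p = 0.0497) and PCGF1, which joins KDM2B in its complex, fell by 0.50 (adjusted p = 0.023). PCGF1 read 325 in KD hypoxia, 392 in WT hypoxia, 258 in KD normoxia and 445 in WT normoxia. The 7 calls in these lists also ended without the intensity trend of the variance and without a floor, and those of RYBP and PCGF1 with 1 probe set per gene as well. In all 5 lists 0 tested probe sets differed 2-fold in any of the 4 pairs. Over all tested probe sets, 0.757% were 2-fold higher and 0.592% lower in the WT pair, and 1.72% differed either way in the KD pair. Between the normoxia arrays 1.44% differed either way, and between the hypoxia arrays 0.579% were higher and 0.406% lower. With so few probe sets, no difference of the lists from other genes is read from the 0.

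The medians of all tested probe sets were 0.01 in the oxygen and -0.02 in the knockdown term. In the oxygen term the medians were -0.11 for the 11 demethylase probe sets, 0.02 for other JmjC genes, -0.01 for amine oxidase demethylases, 0.02 for TET, 0.06 for methyltransferases and -0.01 for Polycomb genes. In the knockdown term they were 0.12 for the demethylase probe sets, -0.02 for other JmjC genes, 0.06 for amine oxidase demethylases, 0.11 for TET, -0.08 for methyltransferases and -0.11 for Polycomb genes.

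**Figure D4:**
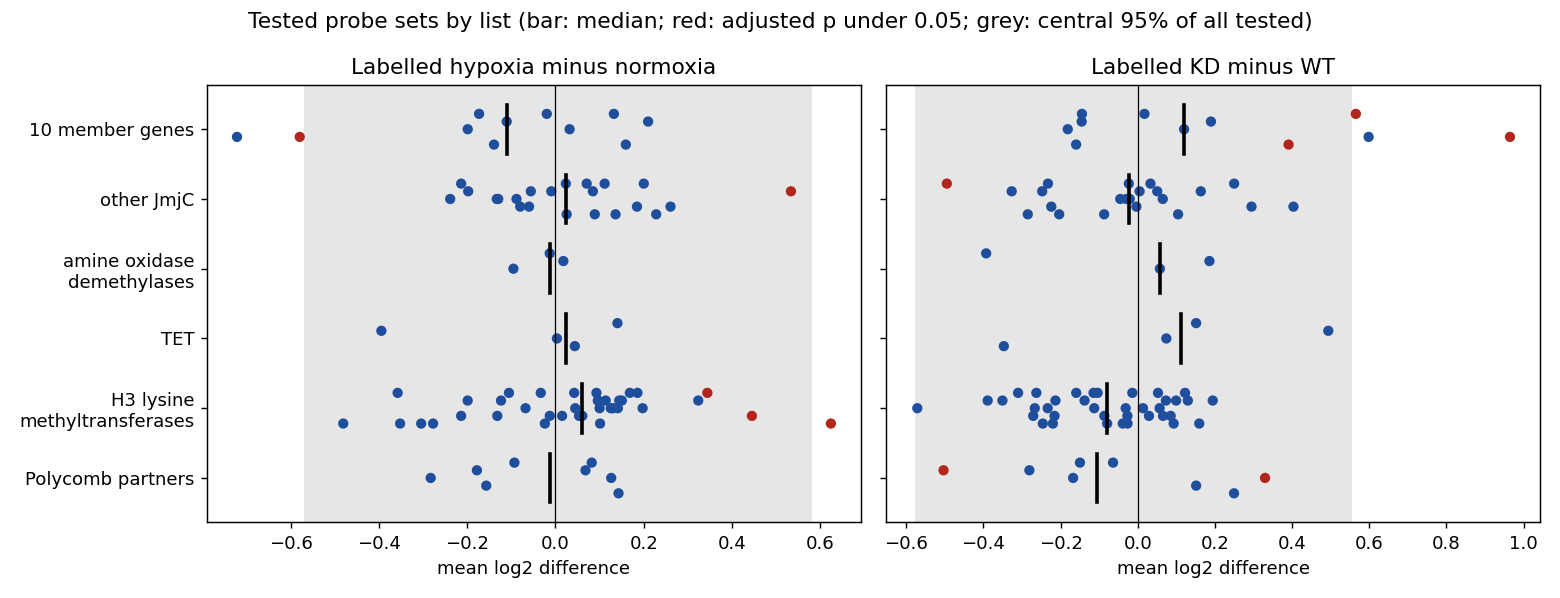
Mean log2 differences in the additive limma model for tested probe sets of the 10 genes and of 5 related lists, for labelled hypoxia minus normoxia (left) and labelled KD minus WT (right); bars are medians, red marks an adjusted p under 0.05, and the grey band holds the central 95% of all tested probe sets. The probe set farthest to the right in the knockdown panel is the dimmer KDM3A probe set at 0.96.

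Genes with array patterns most like that of the brighter KDM3A probe set were NADSYN1, SLC16A13, LIX1L, OSBPL2 and RALA. Their distance was 0.06 to 0.08, taken as the Euclidean distance of 4 mean-centred log2 values among 8037 other genes above the floor on all arrays. NADSYN1, which makes NAD, read 432 in KD hypoxia, 355 in WT hypoxia, 526 in KD normoxia and 344 in WT normoxia, and so shared the high reading in the array labelled KD normoxia. For the brighter KDM5B probe set the most alike were ZBTB18, AMD1, GIGYF2, MRC1 and MYADM, at distances of 0.06 to 0.11. AMD1, an enzyme of polyamine synthesis, read 1959 in KD hypoxia, 1165 in WT hypoxia, 1914 in KD normoxia and 1401 in WT normoxia. These likenesses rest on 4 arrays and describe them only.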

How the data were processed

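Total RNA (100 ng per sample) from 4 samples was turned into biotinylated cRNA (3' IVT Express, Affymetrix), per the labels' protocols. The authors deposited 1 linear intensity per probe set and array. What software, background correction and scaling made them is not stated in the sources used here. No detection calls were used, and between 1065 and 1129 values per array were exactly 1.

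Probe sets were named from the platform annotation: 29254 of 42924 had 1 symbol, 439 several and 13231 none. For 16 of the 18 demethylase probe sets the gene ID was found in a RefSeq table of the assembly UU_Cfam_GSD_1.0 with the same symbol. No genome build was used, so there are no coordinates or sequences. Each probe set was 1 feature, because the genes were defined by probe sets. Values were log2(intensity + 16), the floor was their median, 5.96, and 23652 probe sets reached it. The additive model was fitted with limma 3.58.1 (R 4.3.3) by lmFit and by eBayes with an intensity trend. Its p-values are two-sided, adjusted by Benjamini-Hochberg and read at 0.05, with a prior of 13.8 degrees of freedom. The same steps were run on simulated arrays with known changes. Their noise was drawn from the spread seen in these arrays, so the run checks the code and not the p-values reported here. Python 3.11.15 was used for counts and figures.

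The members, lists and tests were chosen with earlier results of these data known. Any probe set of the members could be named. The probe set brightest on average stood for a gene, and from each list could be named the 3 genes with the largest absolute value in each term, every called probe set and those differing 2-fold. KDM5A, KDM6A, KDM3B and further probe sets of called genes were named after their values were seen. HIF1A is named for the label, and the 5 most alike genes are named for KDM3A and for KDM5B, which had the largest range among the members whose brightest probe set was above the floor on all 4 arrays. The alternatives were 3 scalings, pseudocounts of 1 and 64, no floor or one at the 75th percentile, 1 probe set per gene, and no intensity trend.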

Additional observations from a re-analysis of the deposited data

Results flagged for a closer look

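For 7 of the 11 tested demethylase probe sets a labelled difference had opposite signs in the 2 arms of the design. For 6 of them the response to labelled hypoxia differed in sign between WT and KD cells, against 34.2% of all tested probe sets, and for 5 the labelled KD minus WT difference differed in sign between hypoxia and normoxia, against 33.4%. These contrasts were not tested, there being 1 array in a group, and several of the values are close to 0. The share of all tested probe sets with opposite signs in either contrast was not counted, so the 7 is not read as a trait of the family. The response in WT minus that in KD cells was -1.88 for KDM7A, whose size is not measured because 1 array was below the floor. It was -0.42 and 0.33 for the brighter and dimmer JMJD6 probe sets, which also opposed each other. It was 0.38 for the brighter KDM3A probe set, while the dimmer, at -0.36, fell with labelled hypoxia in both genotypes. It was -0.34 for KDM6B, -0.22 for the dimmer KDM5B probe set and -0.11 for the dimmer tested KDM4B probe set.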

How the results depend on the processing

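No paired analysis was possible because each group holds 1 array. The 2-fold and limma counts of demethylase probe sets and the sign of every call held under median centring, quantile normalization and cyclic loess. The opposite-sign counts above were not recounted. For KD minus WT in normoxia, the brighter JMJD6 probe set was at -0.02 as reported and at 0.009, 0.002 and 0.004 under these scalings. Its place in those counts thus depended on the scaling. The 3 rises in the knockdown term and the 1 fall in the oxygen term stayed called under these scalings, under pseudocounts of 1 and 64 and when the floor was raised to the 75th percentile. Without the intensity trend, and also without a floor, the rises became 0 and the fall 0 (at an unadjusted p under 0.05, 3 probe sets were higher in the knockdown term and 1 lower in the oxygen term under both). With 1 probe set per gene the rises were 1 (KDM5B) and the falls 0. The dimmer KDM3A probe set left by construction with 1 rise and the fall, and the brighter stayed at 0.39 but missed the threshold (limma adjusted p = 0.069), for which the cause was not tested. The 2-fold count became 0 in the WT pair and 1 in the KD hypoxia minus WT hypoxia pair with a pseudocount of 64 or a floor at the 75th percentile. With 1 probe set per gene the KD hypoxia minus WT hypoxia pair also counted 1. The difference of the responses then counted 0 with that floor. Without a floor the counts were 2 in the WT pair and 1 between KD and WT normoxia. They were 3 between KD and WT hypoxia and 2 for the difference of the responses.

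Over all probe sets, the 2-fold counts in either direction are given for WT hypoxia minus normoxia, KD hypoxia minus normoxia, KD minus WT normoxia, KD minus WT hypoxia and the difference of the responses, in this order. They were 319, 406, 341, 233 and 393 as reported. They were 581, 711, 668, 568 and 855 with a pseudocount of 1, and 119, 162, 123, 51 and 65 with 64. Without a floor they were 566, 707, 568, 560 and 1735, with the floor at the 75th percentile 153, 177, 158, 76 and 49, and with 1 probe set per gene 115, 153, 116, 86 and 154. The limma calls over all probe sets were 1264 higher and 1163 lower for oxygen and 1036 and 1117 for the knockdown label as reported. They were 10 and 15, and 0 and 0, without the trend (1937 and 2498 for the knockdown label at an unadjusted p under 0.05), and 66 and 59, and 0 and 0, without a floor (2488 and 3054). With 1 probe set per gene they were 464 and 410, and 289 and 239, and with the higher floor 738 fell for the knockdown label. Where a floor or 1 probe set per gene leaves fewer features the 2-fold counts fall by construction. The limma calls come from a new fit on those features, and the cause of their change was not tested. The cause of the loss without the trend or the floor was not tested either. Among the related lists, the 2 JmjC, 3 methyltransferase and 2 Polycomb calls ended without the trend and without a floor, and the JMJD1C call also under median centring. The JARID2, JMJD1C, NSD3 and NSD1 probe sets called were too dim for the 75th percentile floor, and those of JMJD1C, NSD3 and NSD1 left with 1 probe set per gene. There both Polycomb calls, RYBP and PCGF1, were also lost, though their probe sets stayed. For the knockdown label 1 more JmjC probe set rose under each scaling and each pseudocount tried. Signal over background limits KDM2A, KDM2B, KDM4C and KDM7A.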
